A study of Mus musculus with 4 samples.

Results

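Monocyte progenitors are described here in Kit+ mouse bone marrow of 4 groups, named control, Mll3SI, Mll4SI and Mll3/4SI. A cell was counted as a monocyte progenitor when it had at least 3 of 6 transcripts (F13a1, Ms4a6c, Ly86, Irf8, Csf1r and Ccr2) at 2 or more unique molecules (UMIs). It was left out when all 4 of the MHC class II transcripts H2-Aa, H2-Ab1, H2-Eb1 and Cd74 were detected, or when at least 2 of the late granulocyte transcripts Ltf, Ly6g and Cd177 stood at 2 or more UMIs. The rule found 4313 such cells among the 34122 kept, each of which held 500 genes or more and 1000 gene UMIs or more, with a mitochondrial share of 10% or less. Where 4 values follow a gene name below, they stand in the order control, Mll3SI, Mll4SI, Mll3/4SI, and 3 values compare the last 3 libraries with control. The monocyte progenitors numbered 960, 1295, 1145 and 913 in that order.

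The study profiled marrow cells carrying the CD45.2 allele and Kit 10 weeks after transplantation by CITE-seq, in which the messenger RNA and a panel of antibody tags are read from the same cell. Each of the 4 groups is 1 library, so no group has a replicate and no difference between groups carries a test. All groups share the transplantation setting and the Kit+ gate, which selects cells bearing the stem cell factor receptor. The labels do not spell out the SI suffix, the number of animals behind a library, their age at transplantation or sex, or what the pair of hashtag antibodies marks.

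Values in a comparison of groups therefore compare libraries. A gene was called higher or lower when its UMIs per 1000000 gene UMIs (CPM), summed over the monocyte progenitors of a library, differed at least 2-fold from control with 1 CPM added to each side. Intervals in brackets are exact 95% intervals that cover counting error only, and those of gene ratios are on the UMIs without the added 1 CPM. The median monocyte progenitor held 27070.5, 21176, 23228 and 28691 UMIs. Sex-linked transcripts differed with the groups in these cells: Xist stood at 0, 0.035, 1734 and 1671 CPM, while the Y-linked Eif2s3y stood at 71.0 and 70.6 CPM in the first pair and at 0 in the other. Sex and genotype cannot be told apart between control and the libraries Mll4SI and Mll3/4SI.

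Monocyte progenitors arise from granulocyte-monocyte progenitors in the marrow under the transcription factors PU.1 (Spi1) and IRF8, and lose granulocytic potential as they commit. They switch on receptors for the growth factor CSF1 and the chemokine CCL2, by which monocytes mature and leave the marrow. MLL3 (Kmt2c) and MLL4 (Kmt2d) are the catalytic subunits of enhancer-bound histone H3 lysine 4 methyltransferase complexes that also hold the demethylase UTX (Kdm6a).

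No transcript of a targeted gene passed the 2-fold call in these cells. Kmt2c stood at 94.6, 85.4, 105 and 99.0 CPM, and Kmt2d at 37.1, 33.1, 28.4 and 28.6 CPM. Kmt2d was thus lower in Mll4SI (log2 -0.37 [-0.52 to -0.25]) and Mll3/4SI (-0.36 [-0.51 to -0.24]) than in control, with a difference of -0.16 in Mll3SI. A 3′ tag does not report whether another part of a transcript was altered. Kdm6a, which is X-linked, read 56.8, 53.0, 96.4 and 94.6 CPM, higher in the same libraries as Xist and below the 2-fold call in both (log2 differences of 0.75 and 0.73).

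The share of monocyte progenitors was 13.4% [12.6 to 14.2], 15.03%, 10.2% and 12.7% of the cells kept. The ratio to control was 1.12 [1.04 to 1.21], 0.763 [0.703 to 0.827] and 0.949 [0.872 to 1.03]. The rule asks for 2 UMIs of a transcript, so it depends on depth. With every cell thinned to 5000 gene UMIs, and 191 to 525 shallower cells left out per library, the shares were 6.58%, 8.28%, 6.89% and 4.99%. The ratios then became 1.26 [1.12 to 1.41], 1.05 [0.936 to 1.18] and 0.759 [0.661 to 0.870], so the low share of Mll4SI turned into one near control and that of Mll3/4SI lay below control. Only for Mll3SI did the unthinned and the thinned interval both lie above 1. Its unthinned share was nearer to control in Hashtag2 cells alone (14.1% against 13.6%). With at least 4 markers it was also nearer (11.9% against 11.2%). The share also depends on how many other Kit+ cells a library holds. Monocyte progenitors made up 40.0%, 36.4%, 44.6% and 36.3% of the cells with at least 3 of the granule protease transcripts Elane, Mpo, Prtn3 and Ctsg at 10 or more UMIs, called granule-high cells here.

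**Figure D1:**
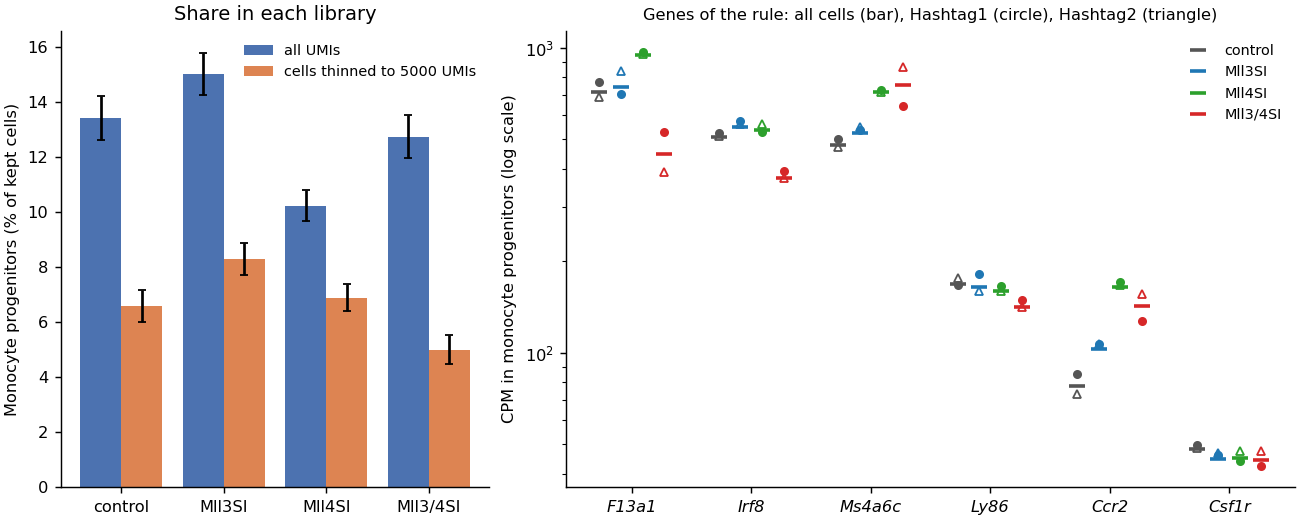
Share of monocyte progenitors among the cells kept (percent) in each library, as measured and after thinning to 5000 UMIs, with exact 95% intervals, beside the CPM (log axis) of the 6 rule transcripts in all cells (bar) and in Hashtag1 (circle) and Hashtag2 cells (triangle). The unthinned share is lowest in Mll4SI (10.2%) and the thinned share lowest in Mll3/4SI (4.99%), and F13a1 is lowest in Mll3/4SI.

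Transcripts of granule proteases were abundant in nearly all of these cells beside the monocytic ones. Between 96.4% and 97.9% of them were granule-high. Elane, the neutrophil elastase gene, stood at 4550, 5007, 5648 and 5226 CPM. The label rests on the rule transcripts. Other transcripts differed with the number of rule markers, and so did depth (control medians of 25581.5 UMIs with 3 markers and 28922 with 6). In control, Klf4, a transcription factor of monocyte differentiation that the rule did not use, read 1.68 CPM in the 160 cells with 3 markers and 74.3 CPM in the 195 cells with all 6. Ctss, the lysosomal protease cathepsin S, read 17.3 and 78.5 CPM in the same cells, and Ly6c2, a surface antigen of inflammatory monocytes, 808 and 1535 CPM. Over the same step Elane went from 4662 to 3301 CPM and Cebpe, a factor of granulocyte maturation, from 46.7 to 6.97 CPM. The rule chose these cells by transcripts of the same cells, so this gradient is a description and gives no support to the label.

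Just outside the rule, cells with 2 markers numbered 217, 223, 230 and 448. They carried Klf4 at 0.507 to 1.44 CPM and Ctss at 4.21 to 11.3 CPM in the 4 libraries, below the values of cells with 3 markers in the same library. Mll3/4SI held the most cells near the threshold: 27.4% of its monocyte progenitors had exactly 3 markers, against 16.7%, 21.1% and 13.6% in the others.

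**Figure D2:**
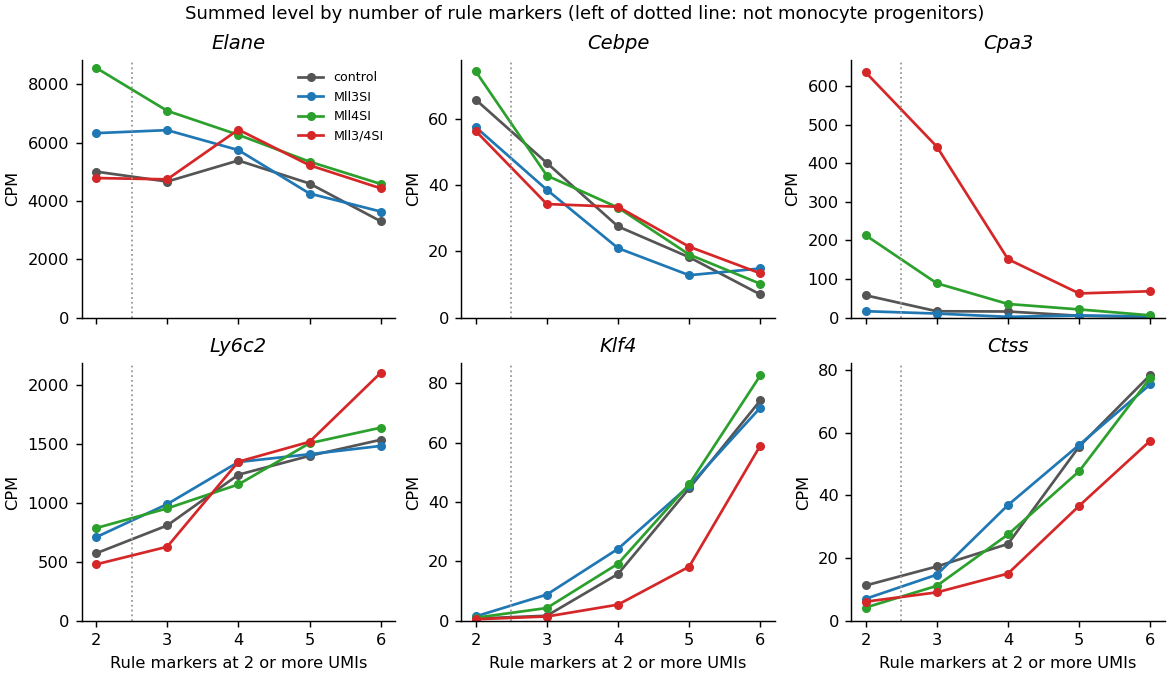
Summed CPM of 6 transcripts not used by the rule, in cells with 2 (just outside) to 6 rule markers, 1 line per library. Klf4, Ctss and Ly6c2 are higher and Cebpe lower in cells with 6 markers than in cells with 3 in all 4 libraries, and Cpa3 in cells with 2 to 3 markers is highest in Mll3/4SI.

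The 6 rule transcripts give the identity of the cells, and their levels between libraries are described without a test. F13a1, on chromosome 13 (36867178 to 37050244, minus strand, mm10) and coding for the A subunit of clotting factor XIII, stood at 715, 743, 947 and 448 CPM. It reached 2 UMIs in 93.6%, 93.1%, 93.8% and 65.2% of the cells. After thinning, 81.6%, 83.5%, 86.5% and 53.0% of the cells held any F13a1 UMI, against 0% to 5.56% of erythroid-like cells, which should lack it. Mll3/4SI was the low library. Irf8, the transcription factor that opposes granulocyte fate, read 510, 548, 536 and 373 CPM, again lowest in Mll3/4SI.

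Ms4a6c, a membrane protein of the tetraspan MS4A family, ran the other way at 479, 525, 716 and 756 CPM. Ccr2, the receptor for the chemokine CCL2, read 77.8, 103, 165 and 142 CPM. Ly86, the partner of the pattern receptor RP105, read 168, 164, 159 and 141 CPM, and Csf1r, the CSF1 receptor, 48.2, 44.7, 45.0 and 44.5 CPM. Csf1r was thus nearly level over the libraries while F13a1 and Ccr2 were not. With each transcript measured in cells chosen by at least 3 of the other 5, the log2 difference of Mll3/4SI from control was -0.73 for F13a1, 0.64 for Ms4a6c, -0.39 for Irf8 and 0.84 for Ccr2, and that of Mll4SI was 1.09 for Ccr2. Cells that met the rule after thinning gave 0.77 for Ccr2 in Mll4SI.

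The promoters of F13a1 and Ms4a6c are shown because these transcripts moved in opposite directions in Mll3/4SI. The windows are 250 bases before to 50 after a start site, from RefSeq on GRCm38.p6. Capitals mark GAGGAAGT, a core of the kind bound by PU.1, searched on both strands. That motif lay in 3.20% of all 32851 promoters of this length. Of the rule genes, 5 matched the promoter table. RefSeq gives a pair of start sites for F13a1, and only the inner window holds the motif, in its transcribed bases.
F13a1 inner start, chr13:37049164-37049463, minus strand: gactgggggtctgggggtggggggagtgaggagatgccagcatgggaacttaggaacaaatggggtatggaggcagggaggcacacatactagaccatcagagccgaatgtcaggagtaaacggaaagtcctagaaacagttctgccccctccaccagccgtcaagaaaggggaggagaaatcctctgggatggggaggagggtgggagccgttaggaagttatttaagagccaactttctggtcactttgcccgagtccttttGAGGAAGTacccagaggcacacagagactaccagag
F13a1 outer start, chr13:37050195-37050494, minus strand: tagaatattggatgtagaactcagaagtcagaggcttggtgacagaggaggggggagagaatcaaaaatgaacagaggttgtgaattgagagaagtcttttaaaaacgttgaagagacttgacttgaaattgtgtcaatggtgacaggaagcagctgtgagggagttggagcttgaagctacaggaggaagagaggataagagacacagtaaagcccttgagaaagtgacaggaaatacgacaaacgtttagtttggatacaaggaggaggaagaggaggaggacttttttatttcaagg
Ms4a6c, chr19:11469118-11469417, plus strand: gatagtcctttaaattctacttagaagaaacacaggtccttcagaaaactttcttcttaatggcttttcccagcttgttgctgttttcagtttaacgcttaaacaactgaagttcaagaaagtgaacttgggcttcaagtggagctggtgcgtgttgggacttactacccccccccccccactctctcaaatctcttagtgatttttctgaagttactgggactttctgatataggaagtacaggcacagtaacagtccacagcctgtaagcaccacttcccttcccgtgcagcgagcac
No GAGGAAGT is in the Ms4a6c window.

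In all 4 libraries the cells below 2 UMIs of F13a1 held more Cpa3, 1 of the basophil and mast cell transcripts, than the rest. They numbered 61, 90, 71 and 318. Cpa3, the mast cell carboxypeptidase gene, stood at 33.1, 14.3, 90.1 and 401 CPM in them and at 7.45, 4.31, 26.2 and 77.9 CPM in the cells at 2 or more UMIs of F13a1. At least 2 UMIs of Cpa3 were found in 4.92%, 4.44%, 33.8% and 44.3% of the former and in 2.56%, 1.24%, 6.98% and 15.5% of the latter. In control and Mll3SI the former percentages stood for 3 and 4 cells. Ms4a2, another marker of these lineages, read 1.27, 2.56, 2.91 and 27.0 CPM below 2 UMIs of F13a1. It read 3.74, 2.64, 3.79 and 6.55 CPM in the other cells, so it was higher below the split in Mll3/4SI alone. In Mll3/4SI, Klf4 read 5.15 CPM below and 26.1 CPM above that split, and Ms4a6c 815 and 727 CPM. The split uses a rule transcript and was chosen after its values were seen.

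Against control, few genes passed the 2-fold call among the 8305 with a mean of at least 10 CPM. Mll3SI had 6 higher (0.0722%) and 12 lower (0.144%), Mll4SI 47 higher (0.566%) and 29 lower (0.349%), and Mll3/4SI 90 higher (1.08%) and 38 lower (0.458%). The median log2 difference over all of them was -0.00, -0.02 and -0.04. A gene that passed the filter only through the library where it is high had to differ, which holds for several interferon genes, for Fn1 and for Tnik below.

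Among genes with a mean of at least 20 CPM, Cpa3 was the most raised in Mll3/4SI, the library through which its mean reached that level. Cpa3 stood at 8.94, 4.98, 30.1 and 182 CPM, so that it rose in Mll4SI (log2 1.65 [1.54 to 1.97]) and in Mll3/4SI (4.20 [4.16 to 4.54]). Erythroid-like cells, defined by at least 3 of 8 erythroid transcripts at 2 UMIs, read 23.1, 24.8, 18.8 and 31.1 CPM in the 4 libraries. B-lymphoid-like cells read 26.3, 13.4, 0 and 251 CPM (78, 228, 46 and 39 cells). Both classes should lack the transcript and they differed most in Mll3/4SI, so they give no single background for Cpa3. After thinning, 2.19%, 0.849%, 6.57% and 21.1% of the monocyte progenitors held a Cpa3 UMI (median depths before thinning as above), against 10.7%, 5.48%, 13.9% and 11.9% of erythroid-like cells (27711, 24198, 40626 and 33916.5 UMIs). B-lymphoid-like cells gave 4.62%, 1.97%, 0% (0 of 39 cells, exact 95% upper bound 9.03%) and 8.57%.

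The other basophil and mast cell markers were low. Ms4a2, a chain of the high-affinity IgE receptor, read 3.599, 2.63, 3.73 and 13.1 CPM, and Fcer1a, its ligand-binding chain, 0.185, 0.277, 1.72 and 6.79 CPM, both highest in Mll3/4SI. Mcpt8, a basophil protease, read 13.2, 30.3, 7.25 and 15.7 CPM. Summed over the 8 markers of the list, Cpa3 included, the level was 36.6, 45.3, 58.3 and 237 CPM, with 0, 1, 0 and 1 of them at 0. In granule-high cells outside the rule the same sum was 256, 154, 300 and 851 CPM, so the order of Mll3/4SI over control was seen there too. Cpa3 in Mll3/4SI differed from control by 4.21 (log2) without the cells of highest Scrublet score and by 4.31 without the cells of both hashtags.

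Granule genes were called in Mll4SI and Mll3/4SI, and the high levels lay in few cells. The list of 15 neutrophil granule genes had a median log2 difference of 0.14, 0.29 and 0.52, beside the all-gene medians near 0. In Mll4SI 2 of 15 rose (Camp, an antimicrobial peptide precursor, 1.27, and Ngp, a neutrophil granule protein, 1.14). In Mll3/4SI 4 of 15 rose: Camp 1.58, Ngp 1.76, S100a8 1.86 and S100a9 1.42, the last 2 coding for the calprotectin subunits. Over all genes tested, 0.566% were higher in Mll4SI and 1.08% in Mll3/4SI. The primary granule genes were nearer to control in Mll3/4SI, with Mpo (myeloperoxidase) at 0.47, Prtn3 (proteinase 3) at 0.52 and Elane at 0.20. Without the cells of highest Scrublet score, 0 of 15 passed the call in Mll4SI or in Mll3/4SI, with medians of 0.19 and 0.23. Without the cells of both hashtags the Mll4SI calls ended too (0 of 15, median 0.20), while 4 of 15 passed in Mll3/4SI.

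S100a8 shows how these sums were built. Its summed level was 379, 390, 682 and 1380 CPM. The median cell read 350, 250, 447 and 354 CPM, and the median erythroid-like cell 339, 266, 393 and 295 CPM. The median monocyte progenitor therefore stood at or near the level of cells that should lack the transcript, in every library. The 95th percentile was 624, 543, 889 and 1984 CPM. Camp gave the same picture, with medians of 189, 146, 286 and 158 CPM in monocyte progenitors and 202, 183, 290 and 142 CPM in erythroid-like cells. The S100a8 difference in Mll3/4SI was 0.83 without the cells of highest Scrublet score (18, 31, 17 and 32 monocyte progenitors per library), 0.50 in cells that met the rule after thinning and 0.48 in Hashtag1 cells, all below the call. Summed over the 8 late neutrophil markers, which include Camp and Ngp, the level was 319, 447, 743 and 961 CPM, with 1, 1, 1 and 0 of them at 0, and the part of such cells in the sums was not tested. The marker sums of B-lymphoid (22.9 to 48.1 CPM), erythroid (4.16 to 26.3), macrophage (15.4 to 18.4), eosinophil (1.04 to 2.74) and T and NK cells (1.29 to 2.17) were low in all 4 libraries.

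**Figure D3:**
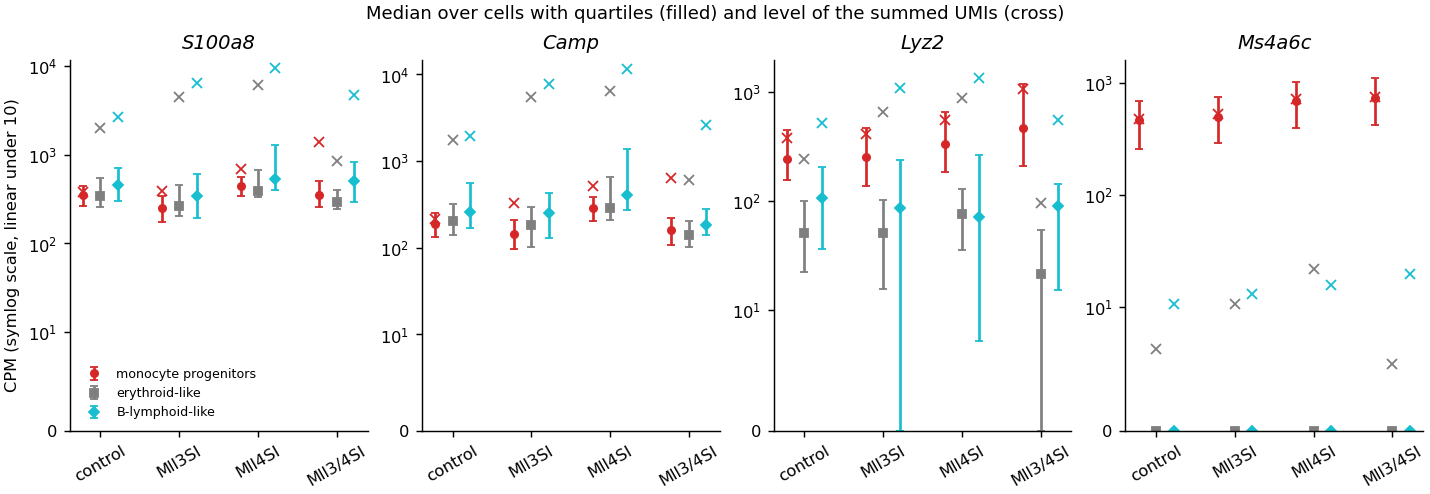
CPM in single cells (symlog axis) of S100a8, Camp, Lyz2 and Ms4a6c in monocyte progenitors, erythroid-like and B-lymphoid-like cells of each library; points are medians and bars span the 25th to 75th percentile, and crosses give the level of the summed UMIs. S100a8 and Camp medians are alike in monocyte progenitors and erythroid-like cells (350 and 339 CPM for S100a8 in control), while Ms4a6c is at 0 in the erythroid-like median cell.

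Monocyte effectors, the secreted and lysosomal products of the lineage, were split in Mll3/4SI. Of 30 listed genes 23 passed the filter, with medians of -0.04, -0.03 and -0.02 in the 3 comparisons, and 0, 1 and 1 rose and 0, 0 and 3 fell. Over all genes tested, 0.0722%, 0.566% and 1.08% were higher and 0.144%, 0.349% and 0.458% lower. Lyz2, the lysozyme gene, stood at 377, 411, 551 and 1056 CPM and rose in Mll3/4SI (1.48). Its median over cells was 243, 251, 335 and 470 CPM, against 51.2, 50.7, 75.9 and 21.5 CPM in erythroid-like cells, so the Lyz2 order held in the median cell.

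Chil3, a chitinase-like secreted protein, fell in Mll3/4SI (81.9, 61.2, 77.3 and 16.1 CPM, -2.28 [-2.50 to -2.20]). Its median cell read 40.8, 0, 46.1 and 0 CPM, equal or close to erythroid-like cells at 39.7, 0, 53.8 and 0 CPM. Of the S100 genes, S100a10 (318, 299, 220 and 131 CPM) and S100a6 (71.0, 48.1, 51.5 and 31.1 CPM) fell in Mll3/4SI by 1.27 and 1.16 on the log2 scale. Fn1, fibronectin, read 5.05, 7.85, 25.5 and 5.52 CPM and rose in Mll4SI (2.13), the library through which it passed the filter.

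The promoter of Ctss is shown because it holds both motifs searched, GAGGAAGT and the interferon-stimulated response element core (GAAA, any 2 bases, GAAA). The latter, also searched on both strands, was found in 3.44% of the 32851 promoters. Of the effector genes 25 matched the table, and GAGGAAGT lay in those of Ctss and S100a4, the response element core in those of Ctss, Tgfbi and Cybb. Counted by gene in the same way, 3.69% of all 27025 genes held GAGGAAGT and 3.99% the response element core. Ctss itself read 45.8, 45.7, 44.1 and 28.8 CPM, below the call in Mll3/4SI (-0.65).
Ctss, chr3:95526536-95526835, plus strand: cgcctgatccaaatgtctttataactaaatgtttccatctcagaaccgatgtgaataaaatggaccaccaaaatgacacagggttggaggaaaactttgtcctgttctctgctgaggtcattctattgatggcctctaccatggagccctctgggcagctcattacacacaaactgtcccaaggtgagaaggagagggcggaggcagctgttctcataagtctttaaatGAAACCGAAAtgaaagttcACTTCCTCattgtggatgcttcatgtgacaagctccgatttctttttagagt

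Transcription factors of the lineage were close to control. Of 18 listed 12 passed the filter, with medians of 0.05, 0.16 and 0.16. Spi1, coding for PU.1, read 205, 221, 233 and 252 CPM, and Zeb2, a repressor needed for monocyte and dendritic fate, 978, 953, 1084 and 1059 CPM. Klf4 read 36.2, 36.6, 41.4 and 19.4 CPM, lowest in Mll3/4SI (-0.87) and short of the call. The immediate early genes Fos (9.05, 14.2, 9.94 and 20.5 CPM) and Jun (22, 23.3, 20.7 and 55.9 CPM) rose in Mll3/4SI, by 1.10 and 1.31, beside 1.08% of all genes.

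Receptors of the lineage were also close to control. Of 23 listed 17 passed the filter with medians of 0.01, 0.09 and 0.09. Itgam, the CD11b integrin chain, was the only one called: it read 16.1, 17.3, 17.4 and 41.8 CPM and rose in Mll3/4SI (1.32), beside 1.08% of all genes. Ly6c2 was near level at 1291, 1321, 1371 and 1372 CPM. Receptors for the growth factor GM-CSF, Csf2ra (55.0, 55.5, 65.6 and 80.6 CPM) and Csf2rb (31.1, 28.7, 39.7 and 53.7 CPM), were highest in Mll3/4SI without passing the call.

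Pattern receptors of microbial ligands were mostly too low to read: 3 of 16 measured passed the filter and none was called. Cd14, the co-receptor for lipopolysaccharide, lay below the filter at 3.75, 19.4, 2.30 and 3.03 CPM and was highest in Mll3SI, with both hashtags showing it (log2 2.12 and 2.17 over control). Of the dendritic genes 4 of 16 passed, with none called. Flt3, the receptor of early lymphoid and dendritic progenitors, read 47.8, 39.8, 24.5 and 23.6 CPM, short of the call in Mll4SI (-0.94) and Mll3/4SI (-0.99).

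Interferon-stimulated genes were higher in Mll3/4SI alone among the 3 comparisons. Of 20 listed 8 passed the filter, with medians of -0.10, -0.25 and 0.83, and 0, 0 and 4 rose, beside 1.08% of all genes higher in Mll3/4SI. The Mll3/4SI median and count include genes that passed the filter through that library and so had to be high there. Summed over all 20 listed genes without the filter, the level was 496, 476, 409 and 946 CPM. The 12 below the filter stood at 9.02 CPM or less in control. Ifitm3, a membrane protein that blocks viral entry, read 163, 161, 127 and 381 CPM (1.22). Ifi27l2a (8.94, 8.55, 5.96 and 50.9 CPM) and Xaf1 (7.83, 6.61, 6.64 and 21.2 CPM) are names that passed the filter through the Mll3/4SI library. Isg15, a ubiquitin-like protein, was under the filter at 2.19, 2.98, 2.01 and 21.3 CPM. Granule-high cells outside the rule had a median of 0.74 for the same 8 genes in Mll3/4SI.

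MHC class I genes, which present peptides to CD8 T cells, lay above control in Mll3/4SI by a smaller median. All 15 passed the filter, with medians of -0.10, -0.18 and 0.47. Only H2-Q6 (1.26) and H2-Q7 (1.47) rose in Mll3/4SI, where 1.08% of all genes were higher. H2-Q6 and H2-Q7 are near-identical neighbours, so the split of their reads is uncertain. B2m, the shared light chain, read 858, 790, 820 and 1261 CPM (0.56).

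Promoters of Isg15 and Ifitm3 are shown because they hold the response element core and belong to the interferon list. Of 15 interferon genes matched in RefSeq, 9 held the core of GAAA, any 2 bases, GAAA (Isg15, Ifit1, Ifit3, Ifitm3, Oas1a, Rsad2, Bst2, Stat2 and Igtp) and 1 GAGGAAGT. By gene, 3.99% of all 27025 held that core and 3.69% GAGGAAGT. In these windows, capitals mark that core, of which overlapping copies run together.
Isg15, chr4:156200769-156201068, minus strand: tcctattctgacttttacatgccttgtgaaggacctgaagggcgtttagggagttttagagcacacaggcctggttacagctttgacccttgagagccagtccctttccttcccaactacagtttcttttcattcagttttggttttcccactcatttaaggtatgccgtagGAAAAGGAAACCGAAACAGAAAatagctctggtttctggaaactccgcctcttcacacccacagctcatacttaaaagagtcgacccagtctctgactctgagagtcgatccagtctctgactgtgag
Ifitm3, chr7:141010695-141010994, minus strand: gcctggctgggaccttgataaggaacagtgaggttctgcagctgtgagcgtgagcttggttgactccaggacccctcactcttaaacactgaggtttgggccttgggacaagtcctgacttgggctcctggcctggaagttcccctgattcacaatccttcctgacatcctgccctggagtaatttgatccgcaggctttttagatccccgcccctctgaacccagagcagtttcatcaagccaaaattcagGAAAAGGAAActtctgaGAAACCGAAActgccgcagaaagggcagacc

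Cell cycle genes showed no call in any comparison, with medians of 0.03, -0.10 and -0.14 over 15 of 15. Among 14 stem and early progenitor genes that passed of 16, Mecom (15.025, 20.04, 6.06 and 4.15 CPM) and Hoxa9 (17.3, 17.7, 6.28 and 7.94 CPM) fell. Both are transcription factors of stem and early progenitor cells. They fell in Mll4SI by 1.18 and 1.33 and in Mll3/4SI by 1.64 and 1.03 on the log2 scale. Over all genes tested, 0.349% were lower in Mll4SI and 0.458% in Mll3/4SI. Mecom and Hoxa9 passed the filter through control and Mll3SI, so lower values in Mll4SI and Mll3/4SI were partly built in.

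The genes with the largest differences in the whole table were partly outside these lists. In Mll3SI, Tpm3-rs7 (184, 5.64, 103 and 5.41 CPM), 1700016D06Rik (60.7, 4.498, 69.3 and 2.82 CPM) and Tspan32, a tetraspanin (56.2, 6.75, 40.5 and 44.5 CPM), fell by 4.80, 3.49 and 2.89 on the log2 scale. A630089N07Rik fell by 1.49. Rabgef1, a Rab5 exchange factor, rose by 1.66 (14.95 and 49.4 CPM). It reached the mean of 20 CPM needed for naming only through Mll3SI, so it had to be high there. Tpm3-rs7 is named as a related sequence of Tpm3, a tropomyosin gene, which read 262, 438, 325 and 454 CPM. The libraries with low Tpm3-rs7 are those with the highest Tpm3, and the authors' counting could split such reads. Tpm3-rs7, 1700016D06Rik and A630089N07Rik also fell in Mll3/4SI, and their granule-high neighbours outside the rule showed the same differences (-4.77, -3.57 and -1.69 in Mll3SI).

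In Mll4SI the genes named by size of change that rose included Aff2, a nuclear protein of the AF4 family (8.79 and 33.8 CPM, 1.83), Ncam1, a neural adhesion molecule (9.91 and 37.2 CPM, 1.81), Itga1, an integrin chain (55.0 and 168 CPM, 1.59), and Clec4a2, a C-type lectin (25.2 and 74.7 CPM, 1.53). Aff2 is X-linked and stood at 31.0 CPM in Mll3/4SI, the other library with high Xist. Aff2 and Ncam1 reached the mean of 20 CPM needed for naming through their levels in Mll4SI and Mll3/4SI. Named genes that fell in Mll4SI included Ccnd1, cyclin D1 (34.9 and 10.2 CPM, -1.68), Cd52, a surface glycoprotein (297 and 92.0 CPM, -1.68), Tnfsf13, the cytokine APRIL (61.0 and 21.2 CPM, -1.48), and Dmkn (81.1 and 29.6 CPM, -1.42). Itga1 in Mll3/4SI was 75.04 CPM, above control by 0.44 [0.35 to 0.55] and short of the call. Ncam1 (49.4 CPM, 2.21) was further from control there than in Mll4SI, and Ccnd1 (10.1 CPM, -1.70) about as far.

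Among the same genes, Rgcc was the most reduced in Mll3/4SI. Rgcc, a cell cycle regulator induced by complement, stood at 178, 163, 199 and 3.83 CPM (-5.22 [-5.83 to -5.26]). The low value was found in each hashtag, at 3.27 and 4.04 CPM against 173 and 172 in control. Nkg7, a granule membrane protein, followed with 307, 276, 232 and 75.5 CPM (-2.01). Tnik, a kinase of the Wnt pathway (9.02 and 54.6 CPM, 2.47), and Ms4a4c, a member of the MS4A family (16.5 and 90.5 CPM, 2.39), rose in Mll3/4SI. Tnik passed the filters through that library.

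The pair of hashtags split the Mll3/4SI monocyte progenitors more than those of the other libraries. Each library held cells of Hashtag1 and Hashtag2: monocyte progenitors numbered 473 and 458, 615 and 599, 623 and 476, and 358 and 527. This comparison was chosen after values were seen and is given as a description. Between hashtags within a library, 4 genes were 2-fold higher (0.0482%) and 4 lower (0.0482%) in Hashtag2 of control, with the same counts for Mll3SI. Mll4SI had 0 (0%) and 1 (0.012%), and Mll3/4SI had 39 (0.47%) and 20 (0.241%). Control, Mll3SI and Mll4SI thus give the size of the difference between hashtags elsewhere. The labels do not say whether the hashtags mark animals, so cells of 1 hashtag were not taken as a replicate.

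Against control cells of the same hashtag, Mll3/4SI had 46 higher (0.554%) and 17 lower (0.205%) in Hashtag1, and 131 higher (1.58%) and 68 lower (0.819%) in Hashtag2. Of these, 42 were higher and 17 lower in both, so that all 17 lower in Hashtag1 were lower in Hashtag2. For Mll4SI the counts were 48 (0.578%) and 33 (0.397%) in Hashtag1 and 46 (0.554%) and 34 (0.409%) in Hashtag2, with 28 and 23 in both. For Mll3SI they were 7 (0.0843%) and 13 (0.157%) in Hashtag1 and 12 (0.144%) and 21 (0.253%) in Hashtag2, with 3 and 8 in both.

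The interferon, MHC class I and granule differences of Mll3/4SI were larger in the Hashtag2 cells. Median log2 differences from control in Hashtag1 and Hashtag2 were 0.36 and 1.09 for the 8 interferon genes (0.18 in Hashtag1 with the 10 CPM filter applied to those cells alone), 0.07 and 0.69 for MHC class I and 0.20 and 0.64 for granule genes. H2-Q7 read 77.9 CPM in Hashtag1 and 253 in Hashtag2 of Mll3/4SI, against 52.4 and 73.7 in control. Ifitm3 read 287 and 458 CPM against 157 and 169 in control. S100a8 read 501 and 1786 CPM against 358 and 400 in control. In the Hashtag1 cells the summed S100a8 and H2-Q7 thus lay above control short of the call (0.48 and 0.56), and in the Hashtag2 cells past it. The median Hashtag1 and Hashtag2 cell of Mll3/4SI read 324 and 379 CPM of S100a8, against 355 and 346 in control. For H2-Q7 it read 53.5 and 228 CPM, against 32.1 and 47.1 in control. S100a8 thus stayed near control in the median cell, and H2-Q7 did not.

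Some monocyte genes differed 2-fold between the hashtags of Mll3/4SI. Of the transcription factors 2 of 12 were higher in Hashtag2 and 1 lower, 1 of 17 receptors was higher, and 1 of 23 effectors was higher and 2 lower. Over all genes tested, 0.47% were higher and 0.241% lower between the same cells. Lyz2 read 621 CPM in Hashtag1 and 1398 CPM in Hashtag2 of Mll3/4SI, against 394 and 368 CPM in control. Klf4 read 28.0 and 13.4 CPM, F13a1 528 and 392 CPM, Itgam 24.4 and 52.7 CPM, and Jun 21.2 and 82.9 CPM. F13a1 reached 2 UMIs in 76.3% of the Hashtag1 cells and 57.1% of the Hashtag2 cells, against 91.1% to 95.1% in the 6 other hashtag groups. Cpa3 differed from control in both, at 88.7 and 236 CPM, and so did Rgcc, Nkg7 (85.4 and 66.4 CPM against 285 and 314) and Chil3 (20.3 and 13.05 CPM against 73.7 and 93.3). Hashtag1 and Hashtag2 monocyte progenitors of Mll3/4SI had median depths of 30752.5 and 26869 UMIs, and 1.12% and 3.23% of them were among the highest Scrublet scores. The part of these in the differences was not tested.

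**Figure D4:**
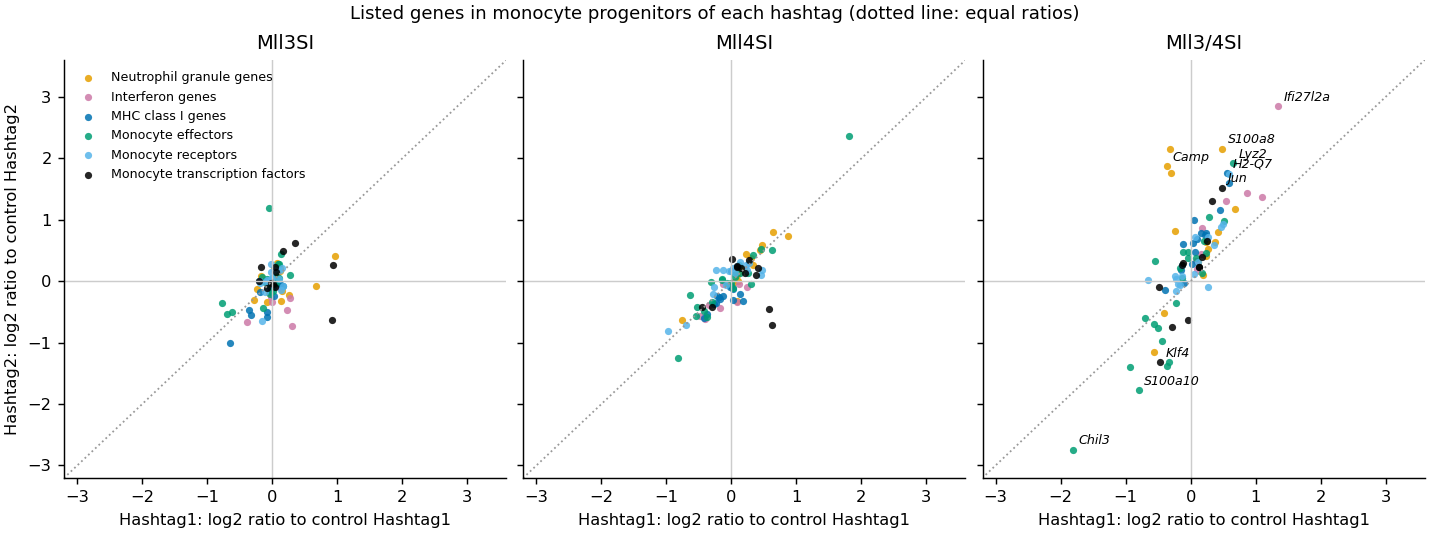
Log2 ratio to control cells of the same hashtag for the genes of 6 lists, Hashtag1 on the x axis and Hashtag2 on the y axis, 1 point per gene and 1 panel per library. In Mll3/4SI most interferon, MHC class I and granule genes lie above the line of equal ratios (medians of 1.09 against 0.36 for interferon genes), and Chil3 is low in both hashtags.

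Antibody tags were not used by the rule. All cells had passed the Kit+ gate, so the CD117 (Kit) tag reads a protein that the cells were sorted on. The centred log2 ratio (the log2 level of a tag in a cell minus the mean over the 13 surface tags) was compared between monocyte progenitors and all other kept cells of the same library. The mean difference over the 4 libraries was 2.37 ± 0.51 for CD48 (SD, n = 4 libraries), 2.13 ± 0.29 for CD34, 1.29 ± 0.26 for CD117 (Kit), 1.08 ± 0.63 for CD41 and 0.52 ± 0.27 for CD16/32, each higher in 4 of 4 libraries. It was -4.03 ± 0.51 for CD11b and -2.32 ± 0.87 for Gr1, lower in 4 of 4. Each of these gave p = 0.125 by an exact two-sided sign-flip permutation test, the smallest 4 libraries allow, or 0.148 after Benjamini-Hochberg adjustment over the 13 tags, so none can reach 0.05. By surface tags the cells were CD48-high, CD34-high and CD16/32-positive with low CD11b, in every library. The other kept cells held many late neutrophil transcripts, with the listed markers summing to 51944, 51057, 78017 and 52245 CPM. The part of such cells in the CD11b, Gr1 and CD117 differences was not tested.

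Against granule-high cells outside the rule, the comparison closest in RNA, CD34 was higher by 1.17 ± 0.15, CD16/32 by 0.76 ± 0.30 and CD48 by 0.56 ± 0.13, each in 4 of 4 libraries. CD11b was lower by 1.13 ± 0.47 and CD41 by 0.63 ± 0.22, each in 4 of 4 libraries (SD, n = 4 libraries, exact permutation p = 0.125 for each). CD117 was lower by 0.24 ± 0.04 and CD201 higher by 0.15 ± 0.11, each in 4 of 4 libraries. CD41, CD117 and CD201 thus changed direction with the cells compared, as CD201 was lower by 0.21 ± 0.09 against all other cells.

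Between libraries, CD41 in monocyte progenitors was -1.93, -2.74, -1.46 and -0.03 on the centred log2 scale. Mll3/4SI was the high library. In it, Hashtag1 cells read -1.02 and Hashtag2 cells 0.65, against -1.82 and -2.11 in control. Itga2b, which codes for CD41, read 1.48 and 0.85 CPM in the control hashtags and 7.07 and 14.3 CPM in those of Mll3/4SI, and granule-high cells outside the rule differed in CD41 from control by 1.61 as well. The 6 megakaryocyte markers, Itga2b among them, summed to 3.64, 6.12, 15.9 and 21.0 CPM, with 1, 0, 1 and 0 of them at 0, and their part in the CD41 level was not tested. CD11b was higher in Mll3/4SI by 0.82, beside the rise of Itgam RNA. Gr1 was lower by 0.94, CD135 (Flt3) by 0.83 and CD34 by 0.82 in the same library. The RNA of Cd34 differed by 0.11 and that of Kit by 0.02, while the CD117 tag was lower by 0.73. Granule-high cells outside the rule differed alike in Mll3/4SI: CD11b 0.75, Gr1 -1.02, CD135 -0.60, CD34 -0.65 and CD117 -0.72. In monocyte progenitors of Mll3SI the CD117 tag was lower than control too, by 0.55. The centred ratio of one tag depends on the others. On the scale of log2 shares of summed tag UMIs, monocyte progenitors of Mll3/4SI differed from control by 3.25 for CD41, 1.69 for CD11b and -0.15 for Gr1. The differences were -0.61 for CD135, -0.53 for CD34 and -0.49 for CD117. The CD135 values rest on medians of 2 UMIs per cell in control and 1 in Mll3/4SI.

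**Figure D5:**
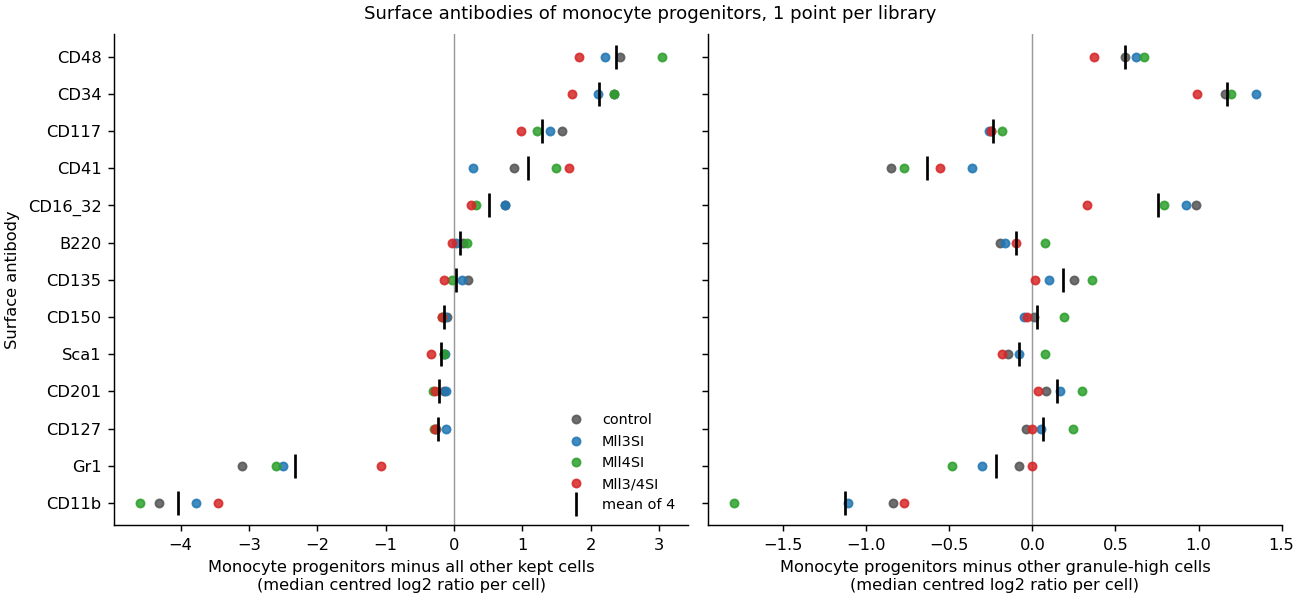
Centred log2 ratio of the 13 surface antibody tags: monocyte progenitors minus all other kept cells, and minus granule-high cells outside the rule, 1 point per library. CD48, CD34 and CD117 lie above 0 and CD11b and Gr1 below 0 against all other cells in every library, and CD41, CD117 and CD201 lie on opposite sides of 0 in the 2 comparisons.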

How the data were processed

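The data were 1 library of CD45.2+Kit+ marrow cells per group, 4 in all, made with a droplet 3′ chemistry and read with surface antibody tags and 2 hashtags. The authors deposited unnormalized UMI counts per gene and tag, made with Cell Ranger 7.1.0 on mm10 per the submitters' processing notes. No cell annotation was used, and the filters and the rule are given with the results. Monocyte progenitor UMIs were summed per library, scaled to CPM and compared as log2(CPM + 1) over genes with a mean of at least 10 CPM, without a test. A hashtag was assigned above 136 UMIs of Hashtag1 or 324 of Hashtag2. Doublets were not removed from the reported values: the highest Scrublet scores (0.8% per 1000 cells) and cells above both thresholds were left out as alternatives. Libraries shared 16 to 29 barcodes per pair, 0 of them among monocyte progenitors.

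Named genes were the rule markers, members of the fixed lists, and up to 8 genes per direction and comparison with a mean of at least 20 CPM. The members and lists were chosen with earlier results of these data known, and the splits by hashtag and F13a1 and the single-cell levels after values were seen. The summing was tested on simulated data. Python 3.11.15, numpy 2.4.6, scipy 1.17.1 and scanpy 1.11.5 were used. Gene positions are those of the mm10 annotation, and promoter sequences are from RefSeq (GRCm38.p6). The values of 1 listed gene are not reported here.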

Additional observations from a re-analysis of the deposited data

How the results depend on the processing

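None of these values has a replicate, so stability across settings says nothing of variation between animals. The share ratio to control (reported as 1.12, 0.763 and 0.949 for Mll3SI, Mll4SI and Mll3/4SI) became 1.26, 1.05 and 0.759 with thinned cells, 0.827 for Mll3/4SI with at least 4 markers, and 1.24 and 0.908 for Mll3SI and Mll4SI in Hashtag1 cells. Genes past 2-fold (18, 76 and 128 reported) numbered 7, 32 and 68 with a pseudocount of 10 CPM, 2, 17 and 32 at a mean of 50 CPM, 69, 242 and 409 without a filter, and 560, 735 and 798 without granule-high cells, which left 35, 36, 24 and 28 cells. With the 10 CPM filter applied again within each hashtag, they numbered 55 for Mll3/4SI in Hashtag1 cells, and 33 and 199 for Mll3SI and Mll3/4SI in Hashtag2 cells. Listed genes past 2-fold (1, 7 and 21) numbered 0, 4 and 13 at a pseudocount of 10 CPM, 0, 3 and 11 at 50 CPM, 5, 21 and 43 without a filter, 22, 35 and 44 without granule-high cells, and 2, 13 and 11 in cells that met the rule after thinning. They were 2 and 4 for Mll3SI and Mll4SI without the highest Scrublet scores, 4 for Mll4SI without cells of both hashtags, 4 and 4 for Mll4SI and Mll3/4SI in Hashtag1 cells, and 3 and 33 for Mll3SI and Mll3/4SI in Hashtag2 cells. Changed directions were the pattern receptor median of Mll3/4SI without a filter (0.067), the Mll3SI granule median in Hashtag2 cells (-0.071) and the Mll4SI cell cycle median in cells that met the rule after thinning (0.013). Without granule-high cells these were the Mll3SI pattern receptor (-0.045) and dendritic (0.21) medians, the Mll3/4SI median of targeted genes (0.082), and Ifi30 at 0.88 in Mll4SI and 0.54 in Mll3/4SI. Antibody differences changed direction against granule-high cells for CD117 (-0.24), CD150 (0.030), CD201 (0.15), CD41 (-0.63), B220 (-0.10) and CD127 (0.065), and as shares of summed UMIs for CD41 (-0.51), B220 (-0.42) and CD135 (-0.017). The cause was not tested. Of 462 list medians under alternatives 372 stayed within their range and 6 changed direction, as did 2 of 1818 single-gene values. Median-of-ratios scaling left the all-gene medians at 0.02, -0.00 and -0.03. No paired analysis was possible because each group has 1 library and the labels give no replicate numbers.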
